A study of Mus musculus with 4 samples.

Results

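H/ACA box small nucleolar RNAs are the RNAs that mouse nomenclature names Snora. All rows of the array table with a gene symbol starting with Snora were taken, which gave 36 rows. A pair of rows for Snora19 shared all 4 array values and was counted once, so that 35 RNAs of 33793 transcript clusters were described. Each cluster stands for 1 transcribed locus and pools the probes placed there by the array design. Total RNA of whole brain from adult female mice of strain 129SV was measured on 2 wild-type and 2 Adar2-/- arrays. Adarb1 encodes ADAR2, an enzyme that deaminates adenosine to inosine in double-stranded RNA, and the comparison asked which transcripts differ in abundance when it is missing. Per the study's methods, mice of both genotypes were siblings from heterozygous crosses and were homozygous for the pre-edited Gria2 R allele, which rescues Adar2-/- mice from early death. The controls therefore are not wild type at Gria2, and the knockout is in the whole animal. The labels name 2 samples a genotype but do not say that each came from its own mouse, so that p-values measure the spread between these samples.

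H/ACA RNAs fold into a pair of hairpins joined by a hinge that holds the H box and followed by a tail that holds the triplet ACA. Many guide the enzyme dyskerin, with the proteins NHP2, NOP10 and GAR1, to uridines of ribosomal RNA that are turned into pseudouridine. Others have no known target, and the U17 RNAs (Snora73) act in cleavage of the ribosomal RNA precursor. Most vertebrate H/ACA RNAs have no promoter of their own. They lie in introns of host genes, are released when the host transcript is spliced, and are trimmed by exonucleases up to the ends that the proteins protect. Hosts are often genes of the translation machinery or Snhg genes, whose spliced RNA is long non-coding.

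Few of the members' sequences are held in the tables used here, but 3 members overlap a miRNA hairpin of RefSeq (GRCm38.p6). The hairpins are shown because they overlap the H/ACA RNA itself, and because Snora36b and Snora34 return in the results. In the first and second sequence the capitals mark the ACA triplet that lies 3 bases before the end of the H/ACA RNA in RefSeq. The second holds the whole RefSeq record of Snora19, which has 56 bases where the array row spans 132, and 12 bases before its start. In the third the capitals mark the 73 bases inside the RefSeq span of Snora34. The letters ACA occur somewhere in 67.3% of the 1005 mouse hairpins of the table, so the triplet is a description of position only.
Mir664, chr1:185242975-185243043, plus strand, at the 3′ end of Snora36b: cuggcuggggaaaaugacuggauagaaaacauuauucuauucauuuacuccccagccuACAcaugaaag
Mir3084-2, chr19:60774329-60774397, minus strand, spanning the RefSeq record of Snora19: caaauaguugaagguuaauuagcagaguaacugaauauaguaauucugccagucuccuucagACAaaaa
Mir1291, chr15:98519762-98519878, minus strand, across the 5′ end of Snora34: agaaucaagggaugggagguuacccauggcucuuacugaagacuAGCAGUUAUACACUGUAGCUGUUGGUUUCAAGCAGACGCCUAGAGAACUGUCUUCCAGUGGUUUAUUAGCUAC

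The 36 rows lay on 19 chromosomes and spanned 116 to 205 bases each. By overlap with GRCm38.p6 genes, 34 of them matched a RefSeq gene of the same symbol. The others were Snora17 on chromosome 4 and the Snora19 row of chromosome 19 that lies in the Cbwd1 cluster. Each row lay inside the span of a cluster of another gene on the same strand, 31 hosts in all. Members were measured by 8 to 28 probes. The file marked 19 of the 35 members (54.3%) as having probes that can cross-hybridize, against 14.7% of all clusters, so copies of a family such as Snora73a and Snora73b, or both Snora17 loci, cannot be separated with certainty.

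The targeted gene went with the labels. Adarb1 had log2 signals of 10.5 and 10.45 on the wild-type arrays and 9.16 and 8.96 on the Adar2-/- arrays. By limma its log2 signal fell by 1.42, with an SE of 0.118 and an adjusted p = 0.409. Brain markers summed to between 14.5 and 14.6 (log2) on every array. Pituitary markers were not level. Their summed signal was 9.10 and 8.81 on the wild-type arrays and 11.3 and 10.6 on the Adar2-/- arrays, with 10 of 11 clusters higher in the knockout and signals from 2.69 to 10.1 over the list. Salivary gland markers reached 13.0 on Adar2-/- replicate 1 and 8.09 to 8.26 on the other 3 arrays, with 9 of 10 clusters higher in the knockout and signals from 3.17 to 12.6. The same array was the highest of the 4 for 22 members (62.9%), against 24.9% of all clusters. Choroid plexus markers ranged from 13.0 to 13.3 and blood markers from 12.3 to 13.0. The pituitary sum was higher in Adar2-/-, as were the means of most H/ACA RNAs below. Between the wild-type arrays it was higher on replicate 1, where most of the H/ACA RNAs were lowest. The part of the pituitary or salivary list in the differences of the H/ACA RNAs was not tested. In bulk tissue, fewer cells of a type and less RNA per cell cannot be told apart.

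Most H/ACA RNAs had a higher mean signal in Adar2-/- brain. Of the 35 members, 31 had a higher mean (88.6%, against 50.8% of all clusters), 3 a lower mean and 1, Snora30, the same mean in both genotypes. In 14 of the 31, the arrays of the genotypes overlapped. The median log2 fold change of the members was 0.31, against 0.005 over all clusters. At an unadjusted limma p below 0.05, 9 members (25.7%) rose, where the same call was made for 3.64% of all clusters. Centring arrays on their Snord rows lowered the log2 fold changes of all clusters alike, to a median of -0.2. The 0.105 given next is relative to that shift. Among the members, both values rest on single arrays, and the count also on the variance model. The median was 0.17 without wild-type replicate 1 and 0.105 when arrays were centred on their Snord rows, and the count was 5 without wild-type replicate 1, 16 without replicate 2 and 3 with a pooled variance. In the other direction, 1 member (2.86%) fell, against 2.31% of all clusters. No member passed after Benjamini-Hochberg adjustment over all 33793 clusters by limma, nor did any other cluster (0.0%), so every call named here is an unadjusted one. With a pooled variance for each cluster and no shrinkage, 15 clusters of the whole table passed adjustment and none of them was a member. Without a model, both Adar2-/- arrays lay above both wild-type arrays for 17 members (48.6%, against 17.7% of all clusters) and below both for 1 (2.86%, against 16.5%). For a single RNA, the smallest two-sided p that exact permutation of 4 arrays allows is 0.333. Below, rose and fell are written of members with an unadjusted limma p below 0.05, and the p printed is the adjusted one.

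**Figure D1:**
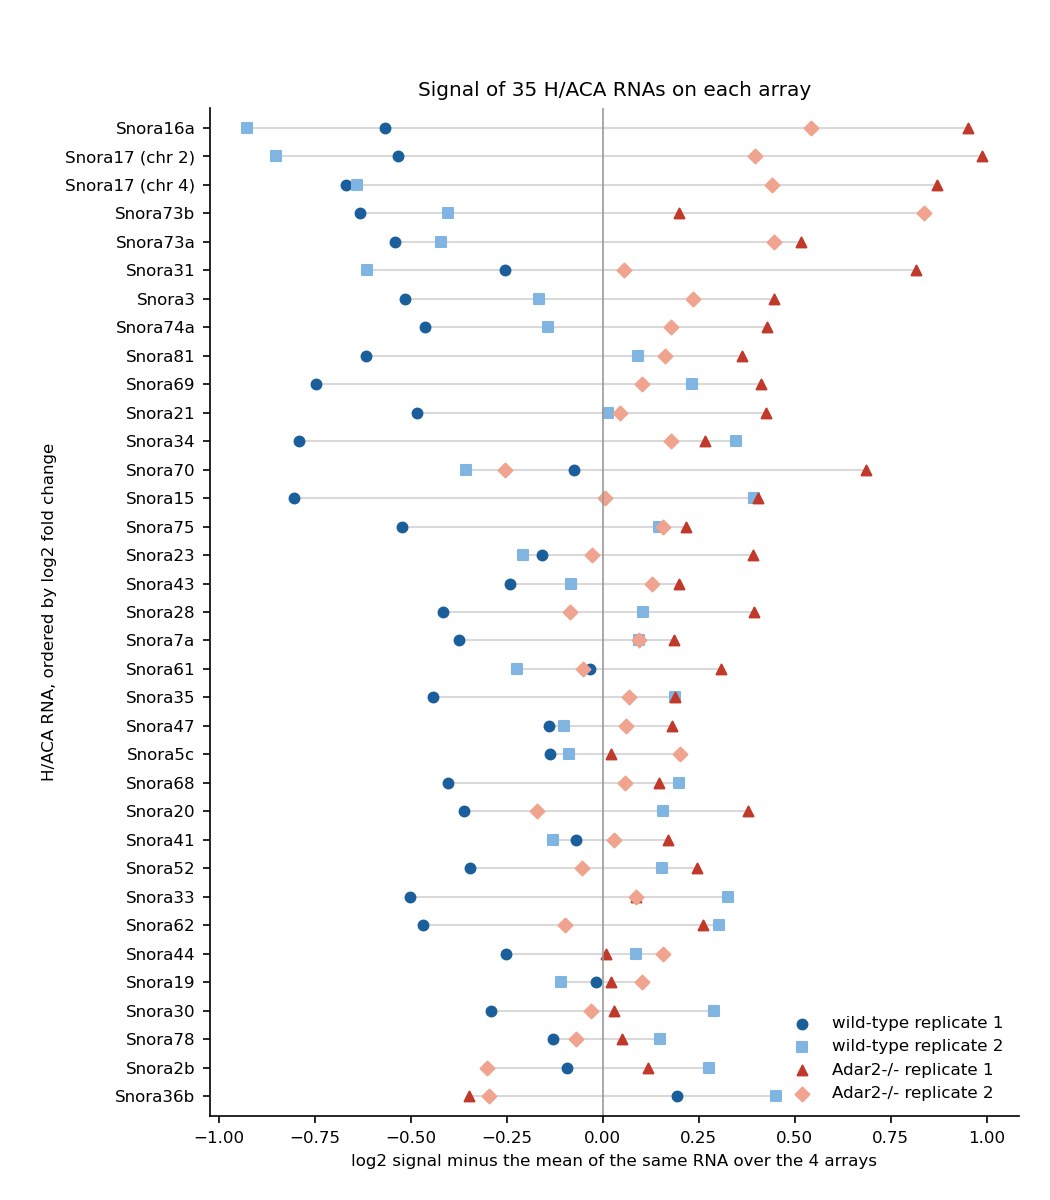
Log2 signal of each of the 35 H/ACA RNAs on the 4 arrays, given as the difference from that RNA's mean over the arrays (x axis), with RNAs ordered by log2 fold change (y axis). Both Adar2-/- arrays lie to the right of both wild-type arrays for 17 RNAs, and wild-type replicate 1 is the leftmost array for 25.

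The largest differences were those of Snora16a and both Snora17 loci. Snora16a and Snora17 were singled out in the study on these same arrays, so that their values here are a description and no independent evidence. Snora17 has a single entry in the study, which names no locus for it. Snora16a (chr4:132309465-132309600, plus strand, in Snhg12) had log2 signals of 9.69 and 9.33 in wild type and 11.21 and 10.8 in Adar2-/-. The genotypes did not overlap, and the gap between them was wider than the difference between the 2 arrays of either genotype. Its log2 fold change was 1.50 (SE 0.189), or 2.82-fold (limma, adjusted p = 0.8). Its cluster of 20 probes carries no mark for cross-hybridization.

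Snora17 was measured at a pair of loci. On chromosome 2 (chr2:26639190-26639321, minus strand, in Snhg7) it had 9.85 and 9.53 in wild type and 11.37 and 10.78 in Adar2-/-. The log2 fold change there was 1.39 (SE 0.221), or 2.61-fold (limma, adjusted p = 0.829). The locus on chromosome 4 (chr4:56897625-56897757, minus strand, in Tmem245), which no RefSeq gene of this symbol overlaps, had 8.56 and 8.59 in wild type and 10.1 and 9.67 in Adar2-/-. Here the rise was 1.31 with an SE of 0.162, or 2.48-fold (limma, adjusted p = 0.77). At both loci the 2 Adar2-/- arrays were the highest, and Adar2-/- replicate 1 was above replicate 2. Both rows carry the mark for cross-hybridization, so RNA of 1 locus may be read at the other. With a pooled variance for each cluster and no shrinkage, the unadjusted p was 0.026 on chromosome 4 and 0.054 on chromosome 2. Only the locus on chromosome 4 was below 0.05 there, so the single listed entry for Snora17 is taken to be that locus.

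The U17 RNAs, Snora73a and Snora73b, lie next to each other in Snhg3, on the chromosome that also holds Snhg12. Snora73a (chr4:132352775-132352979, minus strand) had log2 signals of 8.66 and 8.78 in wild type and 9.72 and 9.65 in Adar2-/-. It rose by 0.97, or 1.95-fold, with an SE of 0.109 (limma, adjusted p = 0.77), and the replicates of each genotype were within 0.12 of each other. Snora73b (chr4:132352322-132352526, minus strand) had 7.71 and 7.94 in wild type and 8.54 and 9.18 in Adar2-/-. Its log2 fold change of 1.04 had an SE of 0.224 (limma, adjusted p = 0.834), and here Adar2-/- replicate 2 was the highest array. Snora16a, both Snora17 loci and Snora73b were the 4 members with a log2 fold change of at least 1, a size that 0.104% of all clusters reached in this direction. Just inside and just outside that size were Snora73b with 1.04 and Snora73a with 0.97.

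The other members that rose were Snora31, Snora3, Snora74a and Snora43, each with an adjusted p = 0.834 by limma. Snora31, in the translationally controlled tumour protein gene Tpt1, had log2 signals of 7.57 and 7.21 in wild type and 8.64 and 7.88 in Adar2-/-, a log2 fold change of 0.87 (SE 0.267). Snora3, in the ribosomal protein gene Rpl27a, had 9.1 and 9.45 against 10.06 and 9.85, a log2 fold change of 0.68 (SE 0.157). Snora74a, in Snhg4, had 9.31 and 9.63 against 10.2 and 9.95, a log2 fold change of 0.61 (SE 0.156). Snora43 shares Snhg7 with Snora17 and had 7.68 and 7.84 against 8.12 and 8.05, a log2 fold change of 0.33 (SE 0.113). In all of these the genotypes were separate, but the arrays of 1 genotype were up to 0.76 apart (Snora31 in Adar2-/-). Without Adar2-/- replicate 1, the log2 fold change of Snora31 was 0.49. Without wild-type replicate 1 it was 1.05, and without wild-type replicate 2 it was 0.69. Those of Snora73b were 0.92 and 1.15 without the first and the second wild-type array. Such fits have fewer arrays to estimate the spread, so a call lost there need not mean a smaller difference. Over 13 alternative fits, the call was kept in 10 for Snora73b, 9 for Snora31, 10 for Snora3, 9 for Snora74a and 7 for Snora43. Among fits that left out 1 array, it was lost in Snora73b and Snora31 without either wild-type array, in Snora31 and Snora3 without Adar2-/- replicate 1, in Snora74a without the first replicate of either genotype, and in Snora43 without wild-type replicate 1 or either Adar2-/- array.

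Snora36b (chr1:185242907-185243043, plus strand, in Rab3gap2) was the member that fell. Its log2 signals were 4.14 and 4.4 in wild type and 3.6 and 3.65 in Adar2-/-, a log2 fold change of -0.65 (SE 0.127, adjusted p = 0.834 by limma). All of these signals lie within the range of 3.49 to 4.4 that 4 Y-linked genes gave on these arrays from female mice, so Snora36b was at the level of probes without a target. Snora70, in the ribosomal protein gene Rpl10, was in this range on 3 arrays, with 4.02 and 3.74 in wild type and 4.78 and 3.84 in Adar2-/-. Its genotypes overlapped, and its log2 fold change was 0.43 (SE 0.305). The 2 Adar2-/- arrays were 0.94 apart for Snora70, the widest gap of any member in that genotype.

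H/ACA RNAs that share a host did not all show the same difference. Snhg12 also holds Snora44 and Snora61. Snora44 had log2 signals of 7.97 and 8.31 in wild type and 8.23 and 8.38 in Adar2-/-, a log2 fold change of 0.17 (SE 0.149). For Snora61 they were 6.91 and 6.72 against 7.25 and 6.89, a log2 fold change of 0.26 (SE 0.156). That of Snora61 was 0.075 without Adar2-/- replicate 1 and 0.435 without Adar2-/- replicate 2. The genotypes overlapped for Snora44 and Snora61, while Snora16a of the same host was separated by more than 1 on the log2 scale. In Snhg7 the log2 fold change of Snora17 was 1.39 and that of Snora43 was 0.33. The difference between members of 1 host was not tested.

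**Figure D2:**
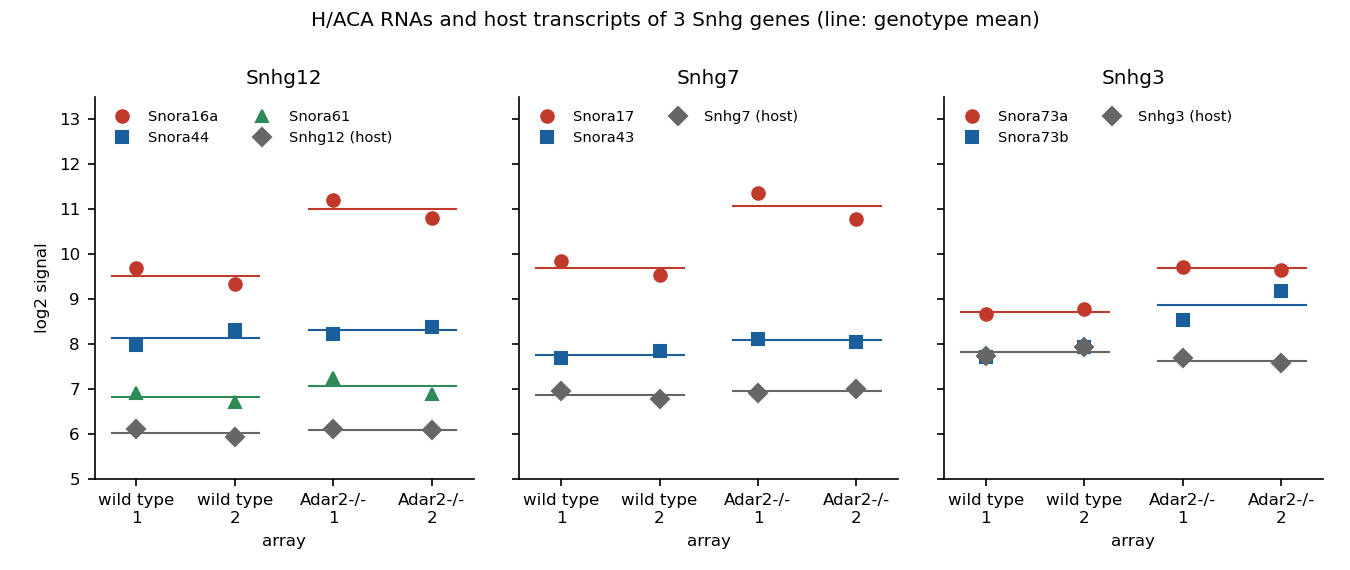
Log2 signal (y axis) on each of the 4 arrays (x axis) for the H/ACA RNAs of Snhg12, Snhg7 and Snhg3 and for the host transcript, with a line at the mean of each genotype. Snora16a, Snora17, Snora73a and Snora73b are higher on both Adar2-/- arrays, while the host transcripts stay between 5.92 and 7.93, and levels of different probe sets are not comparable with each other.

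The host transcripts differed less between the genotypes than most of the RNAs inside them. None of the 31 host clusters had a limma p below 0.05, where 3.64% of all clusters rose and 2.31% fell. At those shares few of 31 clusters would be called, so the count is near that of all clusters. Their log2 fold changes ran from -0.24 (Zbed3) to 0.29 (Snhg4), with a median of 0.04. Snhg12 had log2 signals of 6.11 and 5.92 in wild type and 6.1 and 6.08 in Adar2-/-, a log2 fold change of 0.08 (SE 0.115). Snhg7 had 6.96 and 6.77 against 6.92 and 6.99, a log2 fold change of 0.09 (SE 0.117). Snhg3 had 7.73 and 7.93 against 7.69 and 7.57, so that its mean was lower in Adar2-/-, with a log2 fold change of -0.20 (SE 0.122). Tmem245, which holds the Snora17 locus of chromosome 4, had 8.99 and 8.97 against 8.93 and 9.11. In each of these hosts the arrays of both genotypes overlapped or lay within 0.4 of each other. Snhg4 had the largest log2 fold change of the hosts, with 7.77 and 7.61 against 8.06 and 7.89 and an SE of 0.122 (limma, adjusted p = 0.835). Both Adar2-/- arrays were above both wild-type arrays for Snhg4, as for its member Snora74a, and its unadjusted p was below 0.05 under quantile normalization, cyclic loess, the replicate block, an intensity trend and the filter on signal.

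Across members, 31 of 35 had a log2 fold change larger in size than that of their host. Members also varied more between arrays of the same genotype than hosts did. The median size of that difference was 0.36 against 0.12 in wild type and 0.21 against 0.16 in Adar2-/-. The larger size of the members' fold changes is therefore no measure of genotype alone. Pearson's r between the log2 fold changes of member and host was 0.05 over the 35 members, and 0.099 for the difference between the wild-type arrays. These are correlations across genes measured on the same arrays, some of which share a host, and are given as a description. The difference between a member and its host was itself not tested.

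**Figure D3:**
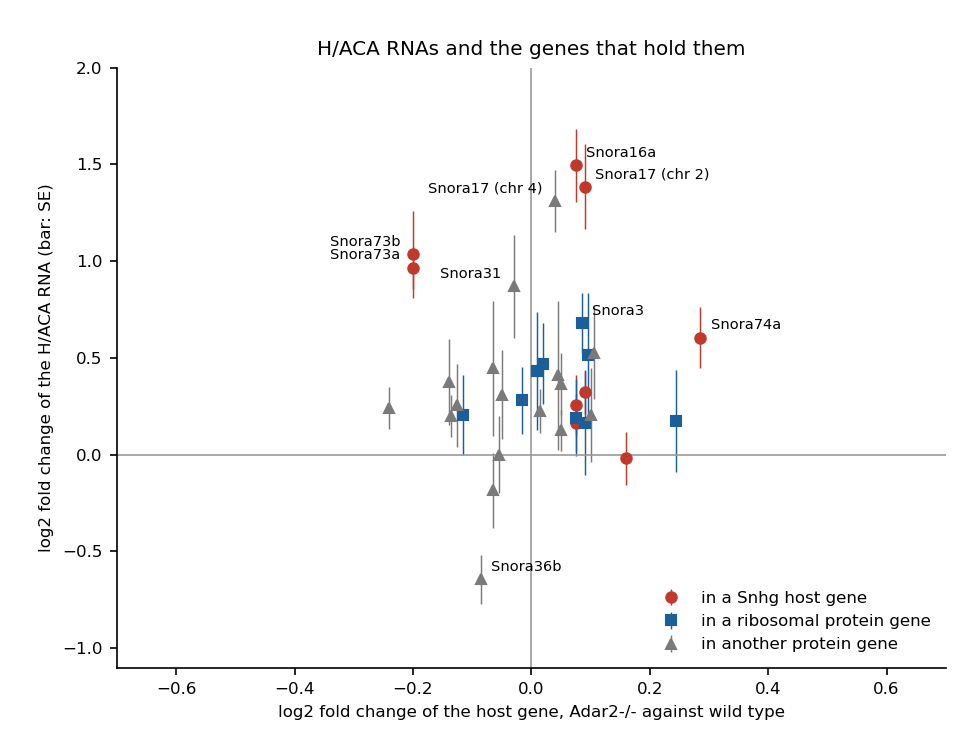
Log2 fold change of each H/ACA RNA (y axis, bar: SE of the fit) against that of its host gene (x axis), by kind of host. Hosts lie between -0.24 and 0.29, while the H/ACA RNAs reach from -0.65 (Snora36b) to 1.50 (Snora16a).

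Grouped by kind of host, a grouping chosen after the values had been seen, the members in Snhg genes had the largest median. The 9 members in 5 Snhg genes had a median log2 fold change of 0.61 (range -0.02 to 1.50), and 6 of them rose. Snora78 in Snhg9 was the lowest of them, with log2 signals of 7.28 and 7.56 in wild type and 7.46 and 7.34 in Adar2-/-. Of the 9 members in ribosomal protein genes, 1 (Snora3) rose and the median was 0.28. The 17 members in other protein genes had a median of 0.26, with 2 that rose (Snora17 on chromosome 4 and Snora31) and 1 that fell (Snora36b). Members without the cross-hybridization mark, 16 in number, had a median of 0.30 with 3 that rose (Snora16a, Snora31 and Snora74a). The 19 with the mark had a median of 0.33 with 6 that rose.

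Promoters of 4 of the 5 Snhg hosts are shown, to show what the annotated starts of these hosts look like. In Snhg12, Snhg7 and Snhg3, H/ACA RNAs rose while the host signal did not. Snhg4 had the largest log2 fold change of the hosts (0.29), and its promoter was not among the sequences used. The window runs from 100 bases before the RefSeq start (GRCm38.p6) over 150 bases, 5′ to 3′ on the strand of the gene, with the letters TATAA in capitals.
Snhg12, chr4:132308578-132308727, plus strand: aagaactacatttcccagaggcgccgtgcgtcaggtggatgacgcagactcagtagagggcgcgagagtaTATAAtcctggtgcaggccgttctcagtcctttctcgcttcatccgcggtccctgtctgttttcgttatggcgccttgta
Snhg7, chr2:26640195-26640344, minus strand: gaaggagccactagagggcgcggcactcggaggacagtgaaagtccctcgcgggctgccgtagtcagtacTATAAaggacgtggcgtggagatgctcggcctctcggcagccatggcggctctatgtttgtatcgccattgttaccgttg
Snhg3, chr4:132353637-132353786, minus strand: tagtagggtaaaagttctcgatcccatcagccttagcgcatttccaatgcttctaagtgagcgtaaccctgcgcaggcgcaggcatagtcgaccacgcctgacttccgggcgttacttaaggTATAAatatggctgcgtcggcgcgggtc
Snhg9, chr17:24719916-24720065, minus strand: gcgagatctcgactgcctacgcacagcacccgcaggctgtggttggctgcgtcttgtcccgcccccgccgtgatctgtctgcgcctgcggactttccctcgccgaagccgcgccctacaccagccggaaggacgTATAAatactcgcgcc

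In Snhg12 and Snhg7, TATAA began 30 bases before the annotated start, in Snhg3 it began 22 bases after it and in Snhg9 34 bases after it. On the strand of the gene, 3 of the 27 hosts with a promoter in the table (11.1%) held TATAA between 40 and 20 bases before a start, against 4.22% of 27025 genes. Searched on both strands over the whole window of 250 bases before to 50 bases after the start, it was found in 8 of 27 hosts and in 28.0% of all genes. Snhg9 holds the letters as well, and its member Snora78 had a log2 fold change of -0.02. A match to these letters is a description of the sequence and not a site in use.

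The second pattern in the members was a low signal on 1 array. Wild-type replicate 1 was the lowest of the 4 arrays for 25 members (71.4%, against 26.4% of all clusters) and the highest for none. Wild-type replicate 2 was above replicate 1 in 27 members, with a median difference of 0.34, and by at least 0.5 in 14, a gap that 2.42% of all clusters showed in this direction. In Adar2-/-, replicate 1 was above replicate 2 in 29 members, with a median difference of 0.20. Member medians were 7.86 and 8.35 on the wild-type arrays and 8.54 and 8.38 on the Adar2-/- arrays, while those of all clusters lay between 6.03 and 6.09. The median difference from wild-type replicate 1 was 0.73 for Adar2-/- replicate 1 and 0.41 for replicate 2, and from wild-type replicate 2 it was 0.22 and 0.07. The count of members that rose was also 5 without Adar2-/- replicate 1 and was 10 without Adar2-/- replicate 2, so the number rests on single arrays of both genotypes.

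Snora15, Snora34 and Snora69 had the widest gaps between the wild-type arrays. Snora15, in the chaperonin gene Cct6a, had log2 signals of 8.58 and 9.78 in wild type and 9.79 and 9.39 in Adar2-/-, a log2 fold change of 0.41 (SE 0.385). Snora34, in Kansl2 and partly shown above with Mir1291, had 9.71 and 10.85 against 10.77 and 10.68, a log2 fold change of 0.45 (SE 0.351). Snora69, in the ribosomal protein gene Rpl39, had 8.17 and 9.15 against 9.33 and 9.02, a log2 fold change of 0.52 (SE 0.318). In all 3 the other wild-type array lay among the Adar2-/- arrays or above them, and only replicate 1 stood apart. Without it the log2 fold changes of Snora15, Snora34 and Snora69 were -0.19, -0.13 and 0.025, and without wild-type replicate 2 that of Snora69 was 1.005. The host Cct6a had 9.38 and 9.22 in wild type and was not lowest on replicate 1. Rpl39 was lowest there, but its wild-type arrays, at 6.36 and 6.44, were 0.08 apart. Members in ribosomal protein genes had a median gap between the wild-type arrays of 0.50 and were lowest on replicate 1 in 8 of 9 cases, and those in Snhg genes had a median gap of 0.16.

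Wild-type replicate 1 was above replicate 2 in 8 members, which were Snora16a, Snora31, Snora17 on chromosome 2, Snora19, Snora23, Snora41, Snora61 and Snora70. Snora35 lies in Htr2c, the serotonin receptor gene whose own transcript is a known substrate of ADAR enzymes. It had log2 signals of 7.71 and 8.34 in wild type and 8.34 and 8.22 in Adar2-/-, a log2 fold change of 0.26 (SE 0.214). Its genotypes overlapped, with replicate 1 of wild type alone at the low end. Htr2c itself had 8.63 and 8.9 against 8.48 and 8.8.

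The remaining members did not pass the threshold. Their log2 fold changes ran from -0.19 (Snora2b in Kansl2, log2 signals 5.66, 6.03, 5.87 and 5.45) to 0.53 (Snora81). Snora81, in the translation initiation factor gene Eif4a2, had 6.02 and 6.73 in wild type and 7.0 and 6.8 in Adar2-/-, with both Adar2-/- arrays highest. Snora21, in Rpl23, had 10.6 and 11.1 against 11.51 and 11.13, with a log2 fold change of 0.47. For Snora23, in the nuclear import gene Ipo7, the values were 10.1 and 10.05 against 10.65 and 10.23, with a log2 fold change of 0.37. Snora47, in Zbed3, had 7.17 and 7.21 against 7.49 and 7.37, a log2 fold change of 0.24, although its host had the lowest log2 fold change of all hosts. Genotypes were separate in Snora81, Snora21, Snora23 and Snora47, each with an adjusted p = 0.835 by limma. Snora75, in the nucleolin gene Ncl, had 7.68 and 8.35 against 8.42 and 8.36, separated by 0.01 only.

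Other small RNAs were set beside the members to see which pattern was shared. The 66 Snord clusters, the C/D box RNAs that guide ribose methylation, had the same median gap between wild-type arrays, 0.34, and 60.6% of them were lowest on replicate 1. Their median log2 fold change was 0.15, with 6 that rose (9.09%) and 1 that fell (1.52%). Both Adar2-/- arrays were above both wild-type arrays in 21.2% of the Snord clusters. Over all clusters, 3.64% rose, 2.31% fell and 17.7% had both Adar2-/- arrays highest. The 9 Scarna clusters, RNAs of the Cajal body that guide modification of spliceosomal RNA, had a gap of 0.07, although 66.7% of them were lowest on wild-type replicate 1. Their median log2 fold change was 0.42, with 4 that rose (44.4%), and both Adar2-/- arrays were above both wild-type arrays in 66.7%. Among these, Scarna13 had log2 signals of 8.89 and 8.93 in wild type and 10.49 and 9.83 in Adar2-/-, with a log2 fold change of 1.25. The 1150 small nucleolar RNA clusters without a symbol had a gap of -0.03, and 29.1% were lowest on wild-type replicate 1. Their median log2 fold change was 0.07, with 114 that rose (9.91%) and 27 that fell (2.35%), and both Adar2-/- arrays were above both wild-type arrays in 25.6% and below both in 8.35%. For 554 Mir clusters the gap was -0.05 and the median 0.03. The difference between classes was not tested.

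**Figure D4:**
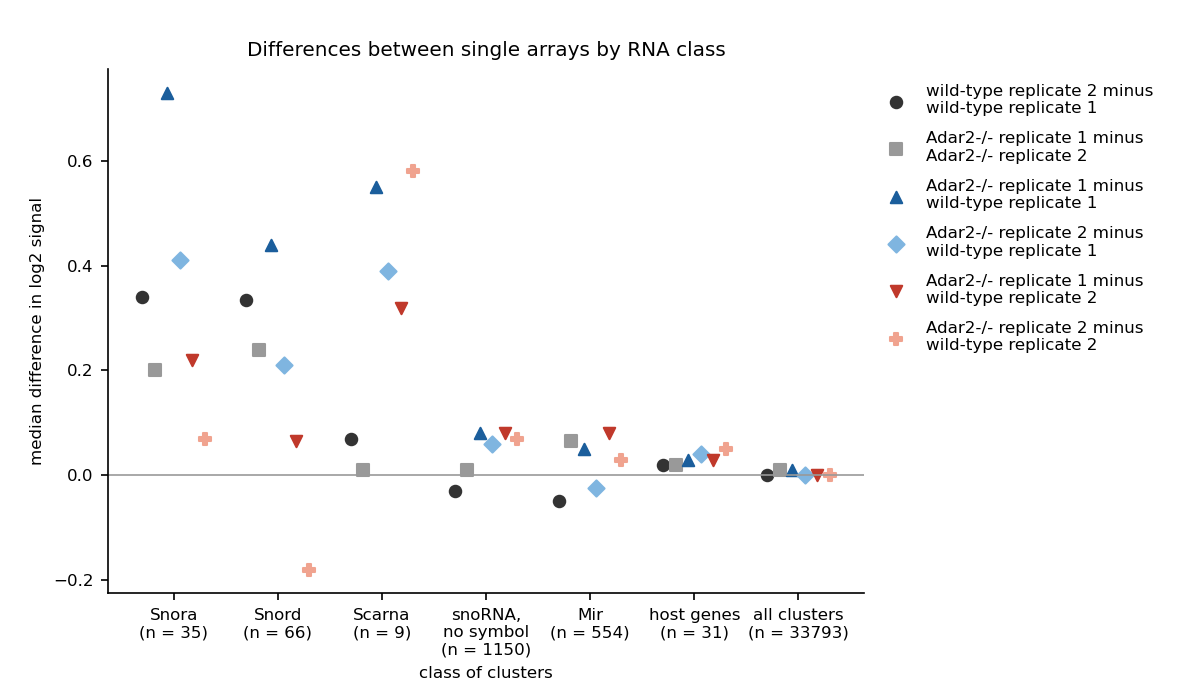
Median difference in log2 signal (y axis) between single arrays for each class of clusters (x axis), with 1 symbol for each pair of arrays. Snora and Snord clusters share a median gap of 0.34 between the wild-type arrays, and differences over the host genes and over all clusters lie within 0.05 of 0.

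The genes of the H/ACA machinery did not rise. The list held 19 genes, measured by 21 clusters, with a median log2 fold change of -0.09 (range -0.39 to 0.12). None of the clusters rose, and 3 of 21 fell at an unadjusted limma p below 0.05, a call made for 2.31% of all clusters. Of the core proteins, dyskerin (Dkc1) had a log2 fold change of 0.04, Nhp2 of 0.10, Nop10 of 0.00 and Gar1 of -0.02, none of them called. The clusters that fell were those of assembly factors, which hold the proteins and the nascent RNA together before the mature particle forms. Naf1, which occupies the place of GAR1 during assembly, had log2 signals of 7.55 and 7.59 in wild type and 7.15 and 7.21 in Adar2-/-, and fell by 0.39 (SE 0.103).

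Shq1, a chaperone of dyskerin, had 7.07 and 6.85 against 6.57 and 6.63, and fell by 0.36 (SE 0.121). Ruvbl1, an ATPase that releases SHQ1 from dyskerin, had 8.47 and 8.23 against 8.04 and 8.02, and fell by 0.32 (SE 0.123). Its unadjusted limma p was 0.0599 under quantile normalization and 0.0579 under cyclic loess, which left 2 clusters of the list called. The genotypes were separate in Naf1, Shq1 and Ruvbl1, which all had an adjusted p = 0.834 by limma, but only Naf1 stayed below an unadjusted 0.05 whichever array was left out. Both Shq1 and Ruvbl1 lost the call without wild-type replicate 1 or either Adar2-/- array. The telomerase RNA Terc, which ends in an H/ACA domain bound by the same proteins, had 9.62 and 10.53 in wild type and 9.96 and 10.1 in Adar2-/-, a log2 fold change of -0.05. Terc was lowest on wild-type replicate 1, as most members were, and its genotypes overlapped.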

How the data were processed

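Whole-brain total RNA of 4 samples was labelled with the Ambion WT Expression Kit and hybridised to Affymetrix whole-transcript mouse gene arrays at a core facility. As deposited by the authors, the table holds a normalized log2 signal for each transcript cluster and array, given to 2 decimals. The submitters' processing notes name Affymetrix Expression Console and RMA. Versions and the genome build are not given in the sources used here. RMA corrects background, normalizes arrays to a common distribution and summarises probes, so that a shift of all clusters on 1 array is largely removed and fold changes of dim clusters are compressed. The number of arrays limits the precision.

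The deposited table also holds log2 ratios, fold changes and p-values of the authors' own comparison, which were not used. Genotypes were compared by lmFit and eBayes of limma 3.58.1 (R 4.3.3), two-sided and with no covariate, with a prior SD of 0.125 on 3.79 prior degrees of freedom and Benjamini-Hochberg adjustment over all 33793 clusters. No filter was applied. The code was tested on simulated data. Tables and plots were made in Python 3.11.15 with pandas 2.3.3 and matplotlib 3.10.9. Hosts were clusters of another gene whose span held the member on the same strand. Coordinates of clusters are those of the file, and those of sequences are from RefSeq (GRCm38.p6).

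Members described with values were Snora16a and Snora17, every further member with a limma p below 0.05, the 3 with the largest difference between the wild-type arrays and the 3 between the knockout arrays, and members sharing a host with Snora16a or Snora17. Snora2b, Snora19, Snora21, Snora23, Snora30, Snora35, Snora41, Snora47, Snora75, Snora78, Snora81 and Scarna13 were named after their values were seen. The members and all gene lists were chosen with earlier results of these data known. Same-numbered arrays did not deviate together (r = 0.052 over clusters), so the replicate number was not taken as a pairing. Alternatives were other scalings, other variance models, a filter on signal, the replicate number as a block, single arrays left out, and members without cross-hybridizing probes.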

Additional observations from a re-analysis of the deposited data

How the results depend on the processing

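The count of 9 members that rose was 9 to 11 under median centring, quantile normalization and cyclic loess. It was 3 with a pooled variance (2.87% of all clusters), 3 of 16 among members without cross-hybridizing probes and 5 to 16 with single arrays left out (5 without wild-type replicate 1 or Adar2-/- replicate 1, 10 without Adar2-/- replicate 2 and 16 without wild-type replicate 2, where 2.14% to 3.12% of all clusters rose). With the replicate number as a block, 8 rose (3.08% of all clusters did), 1 fell (1.93%) and 0 passed adjustment. The 1 member that fell became 0 among clusters above the median signal and 0 among members without cross-hybridizing probes, and was 1 to 1 with single arrays left out. Centring each array on its Snord rows moved the median of all clusters to -0.2, so fold changes there are relative to that shift. Under it 6 members rose and 1 fell, where 60 (0.178%) and 443 (1.31%) of all clusters did, and 1 member (Snora16a, adjusted p = 0.0461) passed adjustment among 22 clusters of the whole table, in place of 0, 11 members had both Adar2-/- arrays highest in place of 17 (0.944% of all clusters), and 3 had both lowest in place of 1 (17.6%). Among members without cross-hybridizing probes these were 5 and 0, and the second was 0 above the median signal. With single arrays left out they were 18 to 31 and 1 to 8, but with 3 arrays groups separate more readily, in 32.1% to 34.9% and 31.1% to 33.5% of all clusters, so these counts are not comparable with those of 4 arrays. The share of all clusters that rose against those that fell changed with scaling, from 1230 and 779 to 801 and 1229 under median centring, 896 and 944 under quantile normalization and 924 and 915 under cyclic loess.

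The median log2 fold change of the members, 0.31, was 0.105 when centred on Snord rows and 0.17 to 0.55 with single arrays left out. Single pairs of arrays, chosen after seeing the data, gave 0.73 for Adar2-/- replicate 1 against wild-type replicate 1 and 0.07 for both second replicates, and members in Snhg hosts gave 0.61. The median of the hosts, 0.04, was -0.005 under median centring, -0.17 when centred on Snord rows and 0.025 to 0.05 with single arrays left out. Host clusters with p below 0.05 were 1 under quantile normalization, cyclic loess, the replicate block, pooled variance and the filter on signal, 2 with an intensity trend (Snhg4 in each of these but pooled variance), and 0 to 1 with single arrays left out. Of the H/ACA machinery, the 3 clusters became 0 when centred on Snord rows, 1 with the replicate block or pooled variance, and 1 to 3 with single arrays left out. With single arrays left out, Snora15 ran from -0.19 to 1.01, Snora34 from -0.13 to 1.02, Snora69 from 0.025 to 1.005 and Snora44 from -0.005 to 0.34, each lowest without wild-type replicate 1, and Snora70 from -0.04 (without Adar2-/- replicate 1) to 0.90. Snora44 was also -0.04 when centred on Snord rows. Snora16a, Snora73a and Snora17 on chromosome 4 kept p below 0.05 in all 13 alternatives, and Snora17 on chromosome 2 in 12. The cause was not tested.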
